A study of Mus musculus with 6 samples.

Results

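The genes described here build triglyceride in the liver, store it in lipid droplets, release it again, take up fatty acids and lipoproteins, and export lipid in very low density lipoprotein. The set was chosen by name and function and holds 41 genes, of 27332 genes with a probe on the array. It comprises 5 genes of fatty acid elongation and desaturation, 7 of triglyceride assembly, 11 of lipid droplet proteins, 7 of lipases and their relatives, 6 of uptake and binding, 4 of lipoprotein export, and the transcription factor Pparg. Each gene is represented by its brightest probe. A gene was tested if every array of 1 group or of both showed that probe well above background, which held for 40 of the 41 genes and for 18899 genes in all. The exception was Plin1.

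Livers came from male BALB/c mice that were 6 weeks old at the start. In the MC-LR group, 3 independent mice drank water with microcystin-LR, a cyanobacterial toxin, at 100 µg/L for 12 months. In the control group, 3 independent mice drank normal sterile water for the same time. No genetic change is named for either group. Each liver was read on its own single-colour Agilent array. Values are log2 signal, quantile normalized by the authors, and a difference is always MC-LR minus control on that log2 scale. Levels of different probes cannot be compared with each other.

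Hepatocytes make triglyceride by adding fatty acyl chains in turn to a glycerol backbone, and the last step is carried out by the diacylglycerol acyltransferases. The product is either coated by perilipin and CIDE proteins in cytosolic droplets or loaded onto apolipoprotein B and secreted. Droplet triglyceride is broken down again by lipases, and fatty acids also enter from the blood with the help of lipoprotein lipase, surface receptors and binding proteins.

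Spots well above background made up 64.9% to 73.7% of an array, with 0 saturated, and precision is limited by the number of arrays. Controls 1 and 2 shared slide 1, and control 3 shared slide 2 with all 3 MC-LR arrays. A comparison with slide as a block therefore sets the MC-LR arrays against control 3 alone. Its value is given beside the plain difference of a gene where the sign differs or the size differs by more than 1.5 times. Hepatocyte markers were bright on every array, with a mean log2 signal over 9 genes of 15.11 to 15.18 in MC-LR livers and 14.99 to 15.09 in control livers. Adipocyte markers, among which are Cidea, Plin1 and Fabp4 of the present set, averaged 4.52 to 5.05 in MC-LR livers and 4.54 to 4.94 in control livers. Of these, Adig and Trarg1 were not well above background on any array, and Retn, Cfd, Cidea and Fabp4 were on every array. Lep and Nnat were well above background on 3 MC-LR arrays and 1 control array each. Enterocyte markers, which include Fabp2 and Apoa4, averaged 5.71 to 6.17 in MC-LR livers and 5.79 to 5.97 in control livers. Cdx1 and Cdx2 were not well above background on any array, and Vil1, Mogat2, Alpi, Fabp2 and Apoa4 were on every array.

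None of the 40 genes passed an adjusted p of 0.05 (limma, Benjamini-Hochberg over 18899 genes), where 0.0159% of all genes passed as higher and 0% as lower. The adjusted p-values ran from 0.269 to 0.983. At an unadjusted p under 0.05, 7 of the 40 genes (17.5%) were higher, against 7.46% of all genes, and 1 (2.5%) was lower, against 5.41% of all genes. The 7 were Dgat2, Lpin2, Gpam, Lipe, Pnpla2, Fabp1 and Fitm1, and the 1 was Fabp4. In all of them the 3 MC-LR arrays lay apart from the 3 control arrays. With Dgat1, 8 genes (20%) had every MC-LR value above every control value, against 11.2% of all genes, and 1 (2.5%) had every MC-LR value below, against 9.21% of all genes. The median difference was 0.19 over the 40 genes and -0.01 over all genes tested. A difference above 0 was found in 25 of the 40 (62.5%), against 48.5% of all genes. The genes also varied more among mice of a group than most did: their median residual SD was 0.29, against 0.20 over all genes tested.

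**Figure D1:**
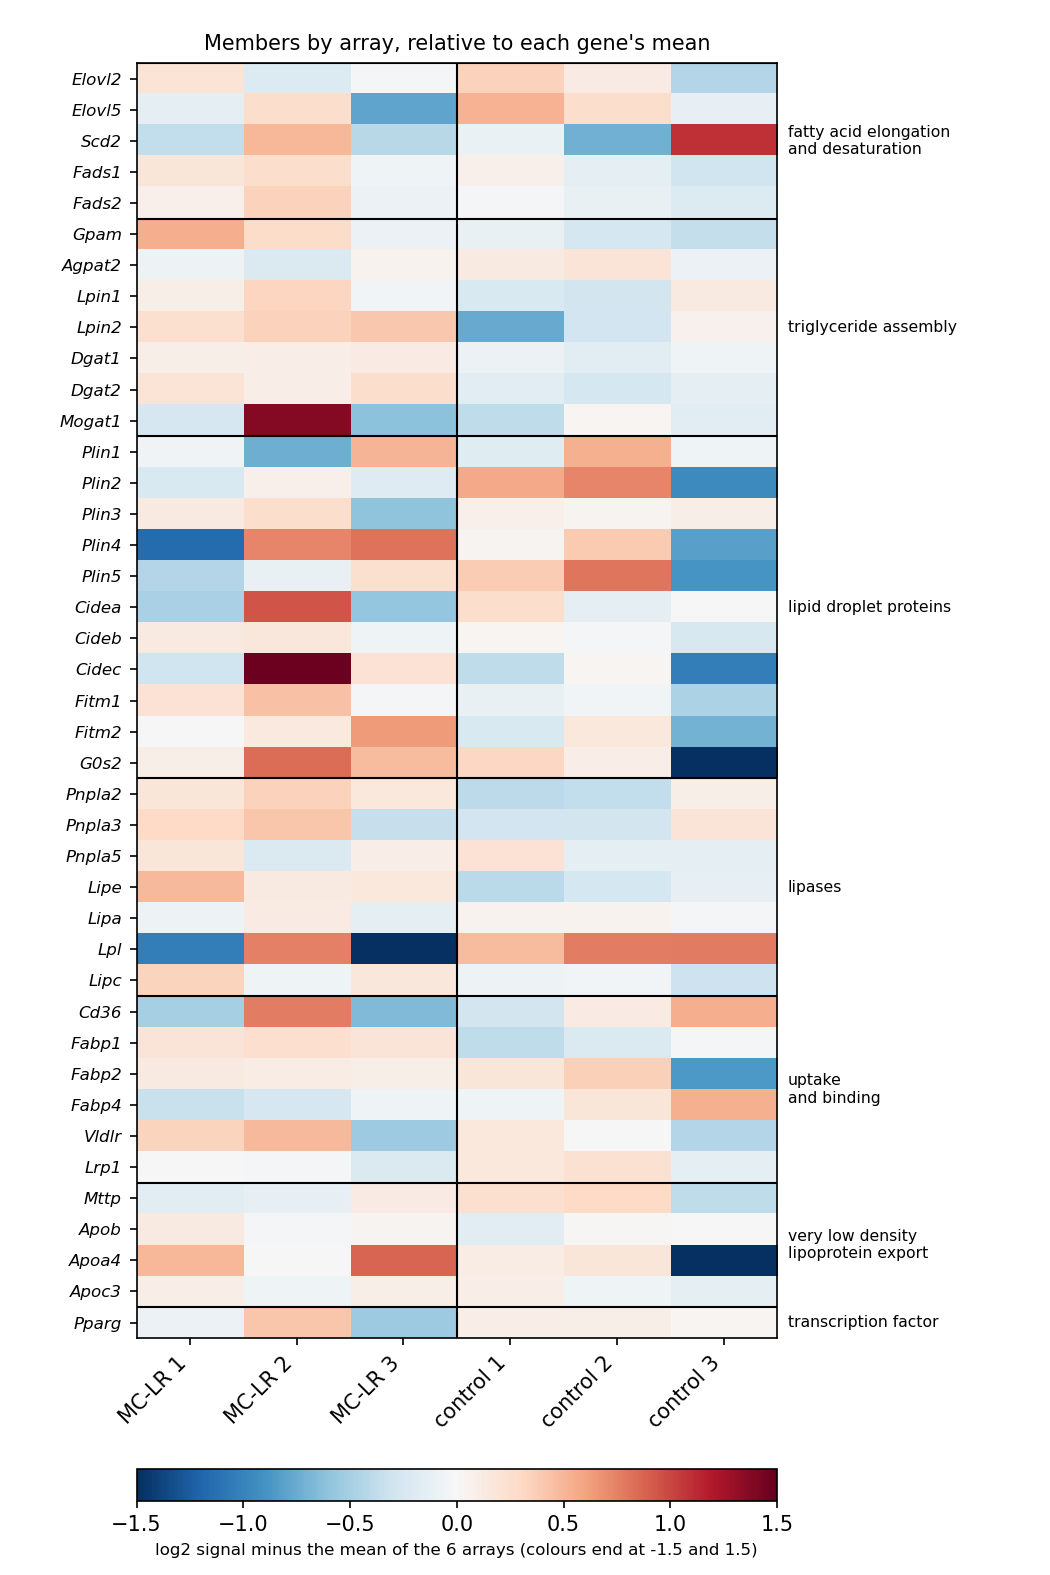
Log2 signal of each of the 41 genes (rows, grouped by role) on each array (columns), minus that gene's mean over the 6 arrays, with red above and blue below the mean. Most rows of triglyceride assembly are redder in the MC-LR columns, while MC-LR 2 and control 3 carry the darkest cells of the lipid droplet rows.

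Among the enzymes of triglyceride assembly, 4 of 7 had all MC-LR arrays above all control arrays, and 0 had them all below, against 11.2% and 9.21% of all genes. The median difference of the 7 was 0.34. The enzymes were Dgat2 and Dgat1, which carry out the last acylation, Lpin2, a phosphatidate phosphatase that makes diacylglycerol, and Gpam, the mitochondrial enzyme that adds the first acyl chain. None of these differences passed the adjusted test.

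Dgat2 had the smallest p of the 40 genes. Its log2 signal was 16.99, 16.89 and 17.05 in MC-LR livers, against 16.63, 16.52 and 16.64 in control livers. The groups were narrow and did not overlap. The means were 16.97 ± 0.08 in MC-LR livers and 16.60 ± 0.06 in control livers (SD, n = 3 each). The difference was 0.38 ± 0.10 (SE), or 1.30-fold, with a 95% interval of 0.14 to 0.61, an unadjusted limma p of 0.00748 and an adjusted p of 0.269. Its 3 probes all placed the groups apart, with differences of 0.38, 0.42 and 0.58. With slide as a block the difference of the brightest probe was 0.33. That probe lies on chromosome 7 at 106302215 to 106302274 in mm9.

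Dgat1 differed by less. Its signal was 9.76, 9.77 and 9.79 in MC-LR livers, against 9.58, 9.51 and 9.61 in control livers. The difference was 0.21 ± 0.09 (SE), with a limma p of 0.0526 before and 0.392 after adjustment. The groups did not overlap for either of its probes.

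Lpin2 had the largest difference of the 7 assembly genes. Its signal was 13.94, 14.04 and 14.10 in MC-LR livers, against 12.95, 13.41 and 13.76 in control livers. The MC-LR arrays were close together, and the controls were spread, with control 3 nearest to the MC-LR arrays. The difference was 0.65 ± 0.21 (SE), or 1.57-fold, with a 95% interval of 0.14 to 1.17 and an adjusted limma p of 0.320. It was 0.26 with slide as a block. The probes of Lpin2 disagreed. Both probes of RefSeq transcripts placed the groups apart, with differences of 0.65 and 0.94. The 3 probes of other clones gave 0.33, 0.22 and -0.02, and on each of them MC-LR 3 was the lowest of the MC-LR arrays. Those 3 probes lie upstream of the others along chromosome 17 of mm9, and their transcripts are not annotated here.

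Gpam stood at 7.63, 7.36 and 7.01 in MC-LR livers, against 6.97, 6.83 and 6.74 in control livers. The lowest MC-LR value was just above the highest control value. The difference was 0.49 ± 0.18 (SE), or 1.40-fold, with an adjusted limma p of 0.355, and it was 0.60 with slide as a block.

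The other 3 assembly genes overlapped between groups. Lpin1, a relative of Lpin2, had 9.87, 10.10 and 9.74 in MC-LR livers, against 9.55, 9.51 and 9.92 in control livers, with a difference of 0.24 that became -0.02 with slide as a block. Agpat2, which adds the second acyl chain, had a difference of -0.16, and 0.0077 with slide as a block. Mogat1, a monoacylglycerol acyltransferase, had 7.51, 9.13 and 7.15 in MC-LR livers, against 7.37, 7.78 and 7.60 in control livers. MC-LR 2 was far above the other 5 arrays, and it was the highest array on all 3 probes of the gene. The Mogat1 difference of 0.34 turned to -0.26 without MC-LR 2 and was 0.73 without MC-LR 3.

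**Figure D2:**
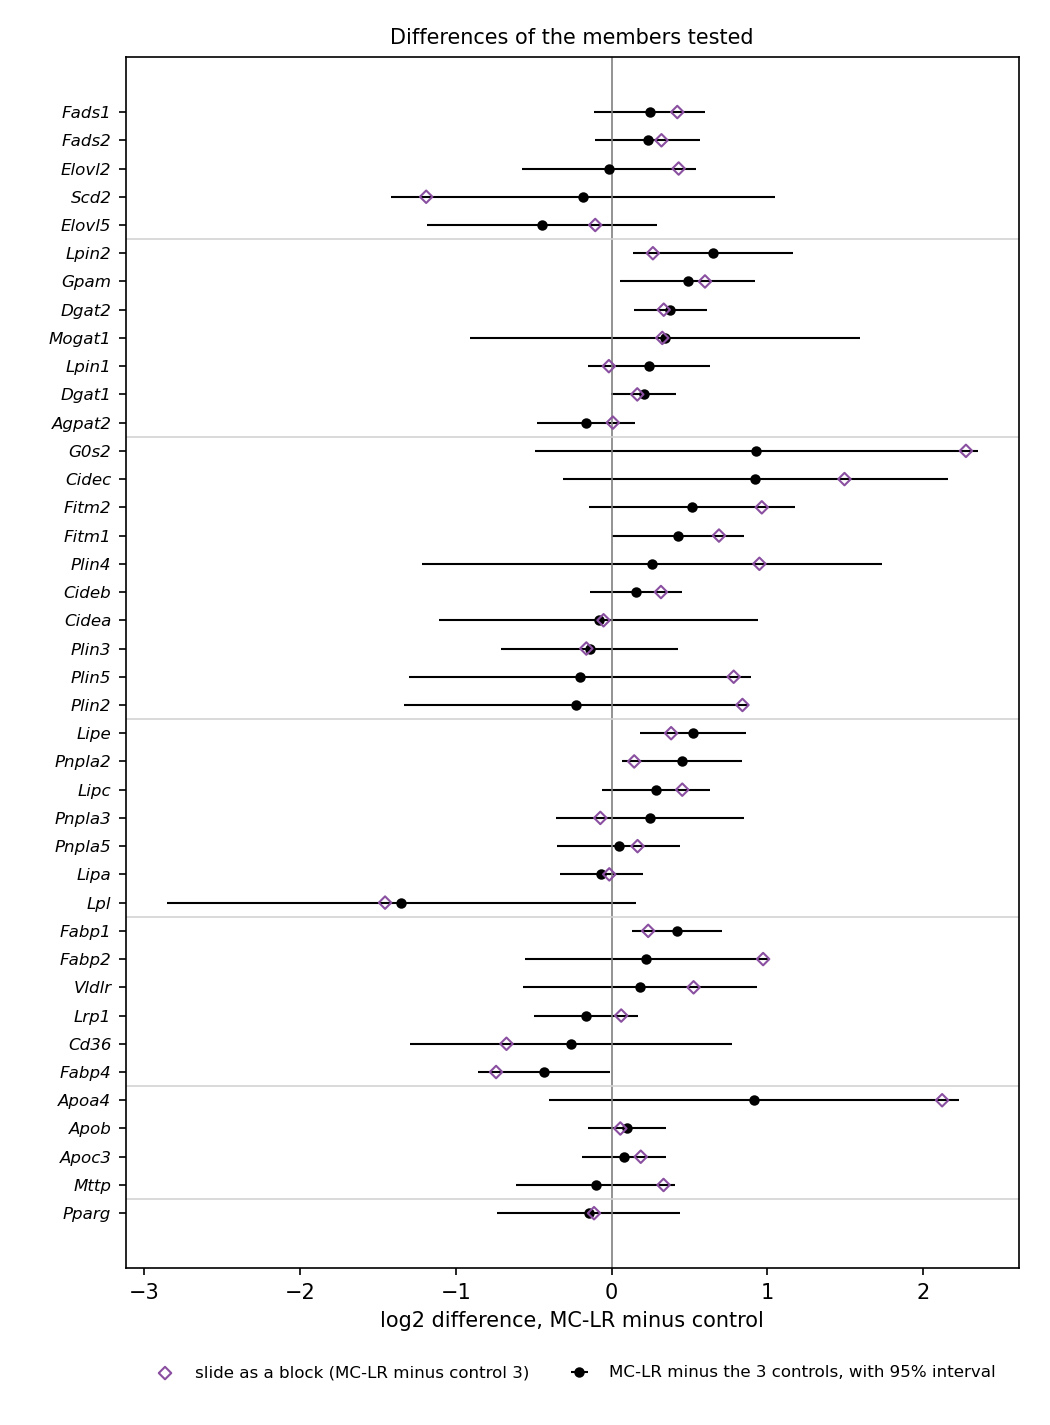
Log2 difference of each of the 40 tested genes, MC-LR minus control, with its 95% interval from limma (black points and lines), beside the difference with slide as a block (open diamonds), grouped by role. The intervals of Lpin2, Gpam, Dgat2, Lipe, Pnpla2, Fabp1 and Fitm1 lie above 0 and that of Fabp4 below 0, and the diamonds of G0s2, Apoa4, Plin2, Plin5 and Scd2 sit farthest from their points.

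Of the lipases that open droplets, Lipe and Pnpla2 were both higher in MC-LR livers without passing the adjusted test. Lipe encodes hormone-sensitive lipase, and Pnpla2 encodes adipose triglyceride lipase, which takes the first acyl chain from triglyceride. Lipe had 8.43, 8.08 and 8.10 in MC-LR livers, against 7.55, 7.68 and 7.82 in control livers. The groups did not overlap. The difference was 0.52 ± 0.14 (SE), or 1.44-fold, with a 95% interval of 0.18 to 0.86, an unadjusted limma p of 0.00948 and an adjusted p of 0.270. Its dimmer probe stood at 6.30, 6.09 and 6.01 in MC-LR livers, against 5.41, 5.41 and 5.48 in control livers, and also placed the groups apart.

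Pnpla2 had 12.90, 13.06 and 12.87 in MC-LR livers, against 12.32, 12.35 and 12.80 in control livers. Control 3 came close to the MC-LR arrays, and the groups did not overlap. The difference was 0.45 ± 0.16 (SE), or 1.37-fold, with an adjusted limma p of 0.342. It was 0.14 with slide as a block, and without control 3 its adjusted p was 0.0821, the lowest of any gene of the set under any setting. Its other probe gave a difference of 0.60.

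A promoter of Lipe and a promoter of Lpin2 share a motif. The letters of the E-box, CACGTG, to which clock and other basic helix-loop-helix factors bind, were found on either strand in the promoter window (250 bases before to 50 after the start) of 5 of the 33 genes with an entry in the RefSeq table (15.15%), against 8.09% of the 27025 genes in that table. The 5 were Elovl5, Lipe, Lpin2, Plin2 and Pnpla5. A gene was counted if any of its promoters in that table held the letters. A match is a description of the letters only. The D-box TTATGTAA (1.11% of all genes), the sterol element TCACNCCAC (1.44%) and a pair of AGGTCA half-sites 1 base apart (0.0481%) were in no window of the 33 genes. Because Lipe and Lpin2 are the genes with a match whose arrays lay apart by at least 0.5, their 250 bases before the start are shown 5′ to 3′ on the gene's strand, from RefSeq on GRCm38.p6, with the E-box in capitals.
Lipe, chr7:25395988-25396237, minus strand: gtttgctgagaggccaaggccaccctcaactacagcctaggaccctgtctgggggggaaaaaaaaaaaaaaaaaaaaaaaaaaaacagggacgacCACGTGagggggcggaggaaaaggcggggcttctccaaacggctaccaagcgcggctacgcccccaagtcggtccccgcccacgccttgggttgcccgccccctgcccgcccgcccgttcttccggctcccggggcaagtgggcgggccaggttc
Lpin2, chr17:71183282-71183531, plus strand: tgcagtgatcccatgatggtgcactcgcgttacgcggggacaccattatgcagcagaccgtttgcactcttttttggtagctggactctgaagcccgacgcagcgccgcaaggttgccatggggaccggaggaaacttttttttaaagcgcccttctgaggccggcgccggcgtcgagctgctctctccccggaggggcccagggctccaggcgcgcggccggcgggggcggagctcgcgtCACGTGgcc
In the Lipe promoter shown the E-box begins 155 bases before the start, and in the Lpin2 promoter shown 9 bases before it. The RefSeq table holds 2 promoters for Lipe and 3 for Lpin2, and only the promoter shown for each gene had a match.

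The remaining lipase genes overlapped between groups on the probe used. Lipc, hepatic lipase, had a difference of 0.29 ± 0.14 (SE) with an adjusted limma p of 0.454, and 0.45 with slide as a block. Lipa, the lysosomal acid lipase, had -0.07, and -0.0153 with slide as a block. Pnpla3, a relative of Pnpla2 tied to fatty liver in humans, had 0.25, and -0.07 with slide as a block, at a signal that was well above background on 4 of 6 arrays. Pnpla5 had 0.05, and 0.17 with slide as a block.

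Lpl had the most negative difference of the 40 genes and the widest spread within the MC-LR group. It encodes lipoprotein lipase, which frees fatty acids from circulating lipoproteins at the vessel wall. Its signal was 10.65, 12.45 and 9.95 in MC-LR livers, against 12.17, 12.46 and 12.47 in control livers. MC-LR 1 and MC-LR 3 lay below every control, and MC-LR 2 lay within the control range. The difference was -1.35 ± 0.62 (SE), with a 95% interval of -2.86 to 0.15 and an adjusted limma p of 0.424. It was -2.07 without MC-LR 2 and -0.82 without MC-LR 3. The dimmer probe had 7.89, 9.59 and 7.29 in MC-LR livers, against 9.64, 9.87 and 9.63 in control livers. There too MC-LR 1 and MC-LR 3 were far below the controls, but MC-LR 2 lay just below the lowest control, so the groups did not overlap. The difference of that probe was -1.45, with an unadjusted limma p of 0.0411 and an adjusted p of 0.369 over every probe. In bulk liver RNA, fewer cells of a type and less RNA per cell cannot be told apart. Macrophage markers averaged 11.61, 11.95 and 12.24 in MC-LR livers, against 11.94, 11.99 and 12.79 in control livers. The part of these cells in the Lpl values was not tested.

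Fabp1 and Fabp4, carriers of fatty acids in the cytosol, stood on opposite sides. Fabp1 is the abundant hepatocyte form. It had 17.50, 17.56 and 17.50 in MC-LR livers, against 16.93, 17.09 and 17.29 in control livers. The MC-LR arrays were nearly equal and lay above all controls. The means were 17.52 ± 0.03 in MC-LR livers and 17.10 ± 0.18 in control livers (SD, n = 3 each). The difference was 0.42 ± 0.12 (SE), or 1.34-fold, with an unadjusted limma p of 0.0120 and an adjusted p of 0.289, and it was 0.23 with slide as a block.

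Fabp4, known from adipocytes, macrophages and capillary endothelium, was the single gene of the set with all MC-LR values below all control values. It had 10.43, 10.51 and 10.69 in MC-LR livers, against 10.70, 10.94 and 11.29 in control livers. The groups almost met. The difference was -0.43 ± 0.17 (SE), with a 95% interval of -0.86 to -0.01 and an adjusted limma p of 0.384. Without control 3 it was -0.28. On its other 2 probes the groups overlapped, with differences of -0.38 and -0.28. Endothelial markers averaged 9.59, 9.41 and 9.77 in MC-LR livers, against 9.96, 9.94 and 9.75 in control livers, with 9 of 10 lower in MC-LR livers. All 10 macrophage markers were lower in MC-LR livers, with a median difference of -0.28. Of 10 stellate cell markers, 1 had a difference above 0, and their median was -0.18. Among all genes, 48.5% had a difference above 0. At an unadjusted limma p under 0.05, 2 endothelial, 1 stellate and 0 macrophage markers were lower, against 5.41% of all genes. At that p 1 stellate marker was higher, against 7.46% of all genes. With slide as a block the difference of Fabp4 was -0.74. The median difference was then -0.80 for the macrophage markers, -0.46 for the stellate cell markers and 0.03 for the endothelial markers. The part of these cells in the Fabp4 values was not tested.

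Cd36, a fatty acid receptor at the cell surface, had 9.76, 11.02 and 9.58 in MC-LR livers, against 9.98, 10.37 and 10.79 in control livers. MC-LR 2 was the highest and the other MC-LR arrays were the lowest of the 6, and MC-LR 2 was the highest on the other probe too. The difference was -0.26, with -0.71 without MC-LR 2 and 0.0054 without MC-LR 3, and it was -0.68 with slide as a block. Fabp2, the intestinal form of the binding protein, had 14.68, 14.65 and 14.63 in MC-LR livers, against 14.72, 14.90 and 13.68 in control livers. The MC-LR arrays were almost identical and control 3 alone was low. Its difference of 0.22 became 0.97 with slide as a block and -0.15 without control 3. Of the lipoprotein receptors, Vldlr had a difference of 0.18, and 0.53 with slide as a block, with overlapping groups. Lrp1 had -0.16, and 0.06 with slide as a block, also with overlapping groups.

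Among droplet proteins, Fitm1 was the only one of 10 tested genes whose groups lay apart. Of all genes, 11.2% lay apart as higher and 9.21% as lower. The differences of the 4 tested perilipins lay between -0.23 and 0.26. Fitm1, which helps triglyceride move from the endoplasmic reticulum into droplets, had 10.95, 11.18 and 10.72 in MC-LR livers, against 10.62, 10.69 and 10.26 in control livers. The groups lay just apart. The difference was 0.42 ± 0.17 (SE), or 1.34-fold, with an unadjusted limma p of 0.0497 and an adjusted p of 0.389, and it was 0.69 with slide as a block. Its relative Fitm2 had 11.45, 11.60 and 12.09 in MC-LR livers, against 11.23, 11.61 and 10.75 in control livers. These groups overlapped at control 2, and the difference was 0.52 ± 0.27 (SE) with an adjusted limma p of 0.473. With slide as a block it was 0.96.

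Plin2, the main droplet coat protein of hepatocytes, had 16.50, 16.80 and 16.53 in MC-LR livers, against 17.30, 17.46 and 15.77 in control livers. The MC-LR arrays lay below controls 1 and 2 and above control 3. Its difference was -0.23 ± 0.45 (SE) with an adjusted limma p of 0.858. It was 0.84 with slide as a block, -0.77 without control 3, where the adjusted limma p was 0.0853, and 0.07 without control 2. Plin5, the perilipin of oxidative tissues, showed the same order, with 11.76, 12.08 and 12.44 in MC-LR livers, against 12.58, 13.00 and 11.31 in control livers. Its difference of -0.20 became 0.78 with slide as a block, -0.70 without control 3 and 0.15 without control 2. Plin4 had a difference of 0.26, which was 0.95 with slide as a block and lay between -0.08 and 0.90 with each array left out in turn. Plin3 had -0.14, and 0.12 without MC-LR 3. Plin1, the adipocyte perilipin, was not tested. Its signal was 3.27, 2.59 and 3.83 in MC-LR livers, against 3.14, 3.86 and 3.26 in control livers, and it was well above background on 2 MC-LR arrays and 1 control array.

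G0s2, an inhibitor of the lipase encoded by Pnpla2, had 12.18, 12.93 and 12.57 in MC-LR livers, against 12.41, 12.20 and 10.28 in control livers. Control 3 was far below the other 5 arrays. The difference was 0.93 ± 0.58 (SE) with an adjusted limma p of 0.541. It was 2.28 with slide as a block and 0.26 without control 3. Of the CIDE proteins, which enlarge and fuse droplets, Cidec had 9.48, 11.26 and 9.997 in MC-LR livers, against 9.41, 9.81 and 8.75 in control livers. MC-LR 2 was the highest and control 3 the lowest. The difference of Cidec was 0.92 ± 0.51 (SE) with an adjusted limma p of 0.491. It was 1.495 with slide as a block and 0.42 without MC-LR 2. Cideb, the form of normal hepatocytes that also acts in lipoprotein lipidation, had a difference of 0.16, and 0.32 with slide as a block. Cidea, known from brown fat and fatty liver, had 6.76, 8.19 and 6.67 in MC-LR livers, against 7.51, 7.10 and 7.26 in control livers. Its difference was -0.08, with -0.57 without MC-LR 2 and 0.19 without MC-LR 3, and it was -0.05 with slide as a block.

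Of the lipoprotein export genes, Apob, Mttp and Apoc3 had differences between -0.10 and 0.10, and Apoa4 had a larger one that rested on 1 control. Apob, the structural protein of very low density lipoprotein, had 15.42, 15.26 and 15.33 in MC-LR livers, against 15.12, 15.31 and 15.28 in control livers. The groups overlapped, and the difference was 0.10 ± 0.10 (SE), with a 95% interval of -0.15 to 0.35. It was 0.06 with slide as a block. Over its 5 probes the differences ran from -0.10 to 0.10. Mttp, the transfer protein that loads lipid onto apolipoprotein B, had a difference of -0.10, and 0.33 with slide as a block. Apoc3, an inhibitor of lipoprotein lipase, had 0.08, and 0.19 with slide as a block. Apoa4, an apolipoprotein of lipid-loaded particles, had 10.76, 10.25 and 11.13 in MC-LR livers, against 10.37, 10.44 and 8.59 in control livers. Control 3 alone was low. The difference was 0.91 ± 0.54 (SE) with an adjusted limma p of 0.518. It was 2.12 with slide as a block and 0.31 without control 3.

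The genes of fatty acid elongation and desaturation had a median difference of -0.02, and all 5 overlapped between groups. Fads1 and Fads2, the desaturases that make polyunsaturated fatty acids, had similar values. Fads1 had 12.66, 12.74 and 12.41 in MC-LR livers, against 12.56, 12.33 and 12.18 in control livers, with a difference of 0.24 ± 0.15 (SE) and an adjusted limma p of 0.523. With slide as a block it was 0.42. Fads2 had 12.81, 13.08 and 12.64 in MC-LR livers, against 12.70, 12.62 and 12.53 in control livers, with a difference of 0.23 ± 0.14 (SE) and an adjusted limma p of 0.526. For both, MC-LR 2 was the highest array and control 3 the lowest. The elongase Elovl5 had a difference of -0.45, which was -0.16 without MC-LR 3 and -0.11 with slide as a block. The elongase Elovl2 had -0.02, and 0.43 with slide as a block. Scd2, a stearoyl-CoA desaturase, had 9.59, 10.46 and 9.55 in MC-LR livers, against 9.86, 9.24 and 11.06 in control livers, with control 3 the highest array. Its difference of -0.18 became -1.19 with slide as a block and 0.32 without control 3.

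**Figure D3:**
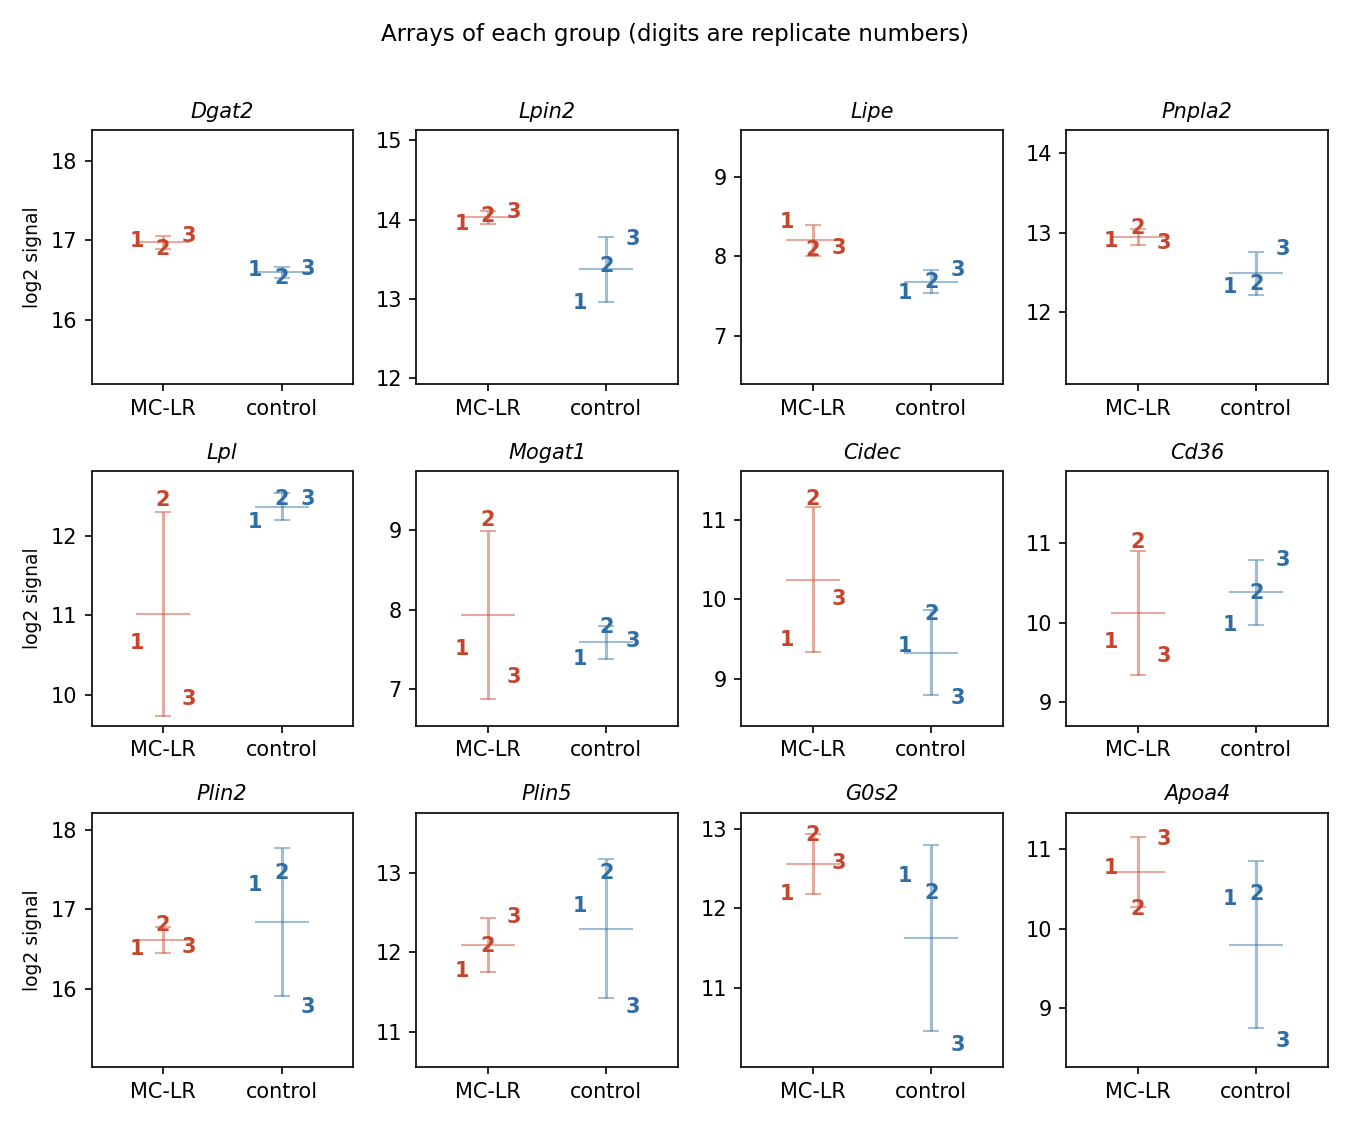
Log2 signal on each array (digits are replicate numbers) for 12 of the genes, with the mean (horizontal line) and SD (bar) of each group of 3, MC-LR left and control right. In the top row the groups lie apart, in the middle row MC-LR 2 stands above MC-LR 1 and 3, and in the bottom row control 3 stands below controls 1 and 2. All panels span the same range of log2 signal.

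Pparg encodes the nuclear receptor PPAR gamma, whose known targets in fatty liver of mice include Cidec, Cidea, Mogat1, Cd36, Lpl and Plin4. It had 11.28, 11.78 and 10.82 in MC-LR livers, against 11.47, 11.45 and 11.40 in control livers. The controls were close together, MC-LR 2 was above them, and the other MC-LR arrays were below them. The difference was -0.15 ± 0.24 (SE) with an adjusted limma p of 0.827, with -0.39 without MC-LR 2 and 0.09 without MC-LR 3. The following counts over single arrays were chosen after the values had been seen. MC-LR 2 was the highest of the 6 arrays for 17 of the 40 genes (42.5%), against 11.4% of all genes, and the lowest for 2 (5%), against 13.1% of all genes. It stood at least 1 above the mean of MC-LR 1 and 3 for 5 genes (12.5%), against 1.74% of all genes. These were Lpl at 2.15, Mogat1 at 1.80, Cidec at 1.52, Cidea at 1.47 and Cd36 at 1.35, and for Pparg itself this gap was 0.73. For Plin4 the gap was 0.89, with MC-LR 3 its highest array. For Fabp4, Plin2 and G0s2, which are not on the list of targets above, the gap was -0.05, 0.29 and 0.55. That list is not complete and was not fixed before the values were seen. Its overlap with the 5 genes therefore cannot serve as a test. The part of Pparg in these values was not tested.

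Control 3 was the lowest of the 6 arrays for 16 of the 40 genes (40%), against 23.3% of all genes, and the highest for 3 (7.5%), against 21.1% of all genes. It stood at least 1 below the mean of controls 1 and 2 for 6 genes (15%), against 3.02% of all genes. The 6 were G0s2, Apoa4, Plin2, Plin5, Fabp2 and Plin4. Only Scd2 stood at least 1 above that mean (2.5%), against 4.69% of all genes. Control 3 was also the only control on slide 2, so the mouse and the slide cannot be told apart. With slide as a block, 7 of the 40 genes were higher at an unadjusted p under 0.05 (17.5%), against 7.92% of all genes, and 2 were lower (5%), against 8.15% of all genes. The 7 were Apoa4, Dgat2, Fabp2, Fitm1, Fitm2, G0s2 and Plin2, and the 2 were Fabp4 and Scd2. Apoa4, Fabp2, G0s2 and Plin2 are among the 6 above, and this fit sets the MC-LR arrays against control 3 alone. Lpin2, Gpam, Lipe, Pnpla2 and Fabp1 did not reach that p with slide as a block. Of the 40 genes, only Dgat2, Fitm1 and Fabp4 were at that p in both fits. None passed an adjusted p of 0.05, and 0.0794% of all genes did.

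**Figure D4:**
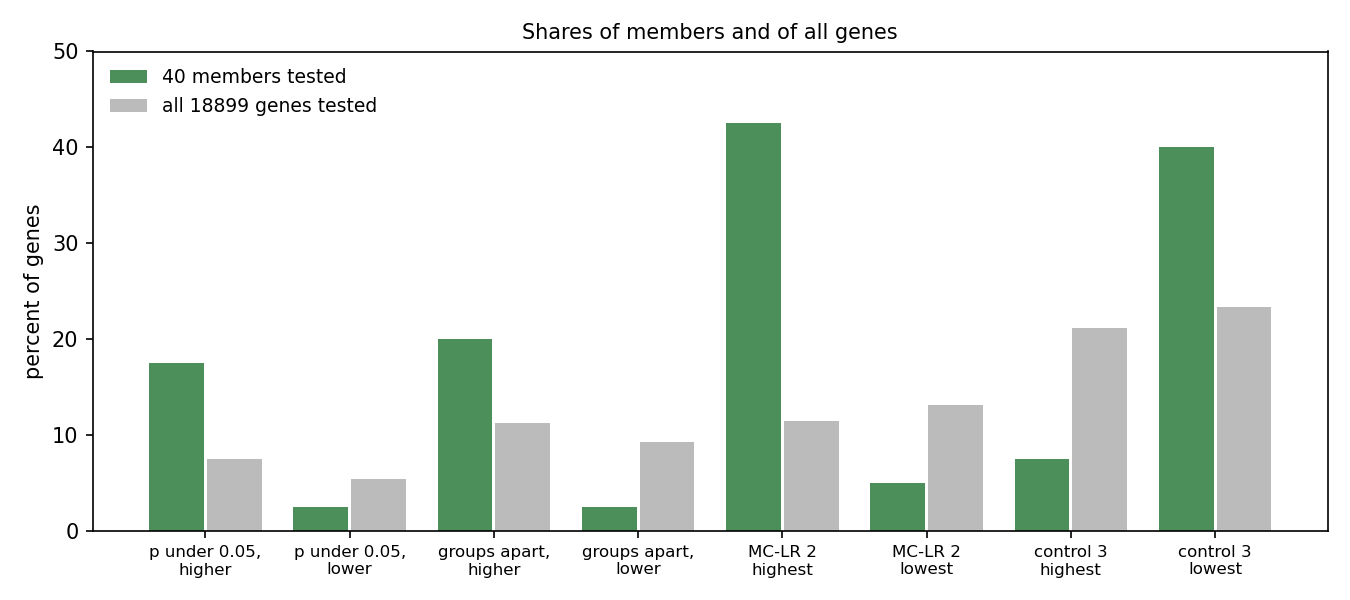
Percent of the 40 tested genes (green) and of all 18899 genes tested (grey) that met each description on the horizontal axis. The green bars for higher differences, for MC-LR 2 as the highest array and for control 3 as the lowest array exceed the grey ones.

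Other genes of the same processes were read from the same comparison. Of 87 tested genes on 6 lists of relatives and partners, 7 were higher and 2 lower at an unadjusted p under 0.05. Among all genes, 7.46% were higher and 5.41% lower at that p. None of the 87 passed the adjusted test, and their median difference was 0.03. No other triglyceride assembly gene among 15 tested reached that p in either direction. The closest was Gpat4, an endoplasmic reticulum relative of Gpam, with a difference of 0.50 and an adjusted limma p of 0.393. The Gpat4 difference was 0.16 with slide as a block. Of 17 other uptake genes, Slc27a1, a fatty acid transport protein, had 9.76, 9.66 and 9.83 in MC-LR livers, against 9.14, 9.08 and 9.19 in control livers. The difference of Slc27a1 was 0.62 ± 0.10 (SE), and its adjusted limma p of 0.165 was the lowest on these lists. Gpihbp1, which anchors lipoprotein lipase on capillary endothelium, had 11.81, 11.52 and 11.91 in MC-LR livers, against 12.69, 12.48 and 12.09 in control livers. The difference of Gpihbp1 was -0.67 with an adjusted limma p of 0.288, and -0.34 with slide as a block. The groups did not overlap for either gene. Lipg, endothelial lipase, had a difference of 1.71, but was well above background on only 1 control array.

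Of 15 other lipoprotein genes, Apoa5, which promotes lipoprotein lipase activity, had 16.57, 16.41 and 16.72 in MC-LR livers, against 15.84, 16.01 and 16.06 in control livers. Its difference was 0.60 ± 0.12 (SE) with an adjusted limma p of 0.230. Apoc2, the cofactor of lipoprotein lipase, had -0.30, and -0.45 with slide as a block. Among 15 other droplet and lipase genes, 1 was higher (Aup1, 0.24) and 1 lower (Hilpda, a droplet protein that inhibits adipose triglyceride lipase, -0.41) at an unadjusted p under 0.05. Among all genes, 7.46% were higher and 5.41% lower at that p. Of 10 other elongation and desaturation genes, 1 reached that p, Fads6 with 0.63, and 0.35 with slide as a block. Elovl3, an elongase, had 11.48, 10.48 and 11.14 in MC-LR livers, against 13.24, 13.19 and 10.13 in control livers, where control 3 was the lowest of all arrays. Of 15 genes that are partners of PPAR gamma or other lipid-sensing regulators, 12 had a difference above 0, where 48.5% of all genes did. The median of their differences was 0.30 and became 0.16 with slide as a block. Rxra, the retinoid X receptor that pairs with PPARs, had a difference of 0.54 with an adjusted limma p of 0.283, and 0.29 with slide as a block. Ppargc1b, a coactivator, had 0.86.

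The signal of clock genes stood apart between the groups. Of 17 tested, 10 were higher and 2 lower at an unadjusted p under 0.05, against 7.46% and 5.41% of all genes. The median difference of the 17 was 1.11, and none passed the adjusted test. Their mean log2 signal was 8.96 to 9.09 in MC-LR livers and 7.49 to 8.23 in control livers. Several genes of lipid handling are known to cycle over the day, and the part of the clock genes in the values above was not tested. Of the genes with an E-box in a promoter window, named above, Lipe and Lpin2 lay apart as higher and Elovl5, Plin2 and Pnpla5 overlapped. Among all genes, 11.2% lay apart as higher and 9.21% as lower. A link of the E-boxes or the clock genes to these values was not tested.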

How the data were processed

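Liver RNA of 3 MC-LR and 3 control mice was labelled with Cy3 and hybridised to 1 array each. The main values are the deposited log2 values, which the authors normalized between arrays by quantiles in GeneSpring, per the series' design text. Spot intensity values come from the deposited scanner files, made with Agilent Feature Extraction version 10.7 per the submitters' processing notes. They hold a background-subtracted intensity and detection flags, per the file headers. Set against the log2 processed signal of the same array, every column gave r between 0.998 and 1.00, and its median was 5.94. The table is therefore on a log2 scale without centring of genes, and a higher value means more signal. Of 41174 probes that were not controls, 31437 were named by current symbol, 2197 by synonym, 91 by accession, and 7449 kept the name in the file. The names come from a RefSeq table of GRCm38.p6, and probe coordinates are those of the files (mm9).

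The comparison used limma 3.58.1 under R 4.3.3, with lmFit, eBayes and two-sided tests at 4 residual and 2.04 prior degrees of freedom, over all 18899 tested genes, with Benjamini-Hochberg adjustment. The genes and lists were chosen with earlier results of these data known. Values on each array are given for genes whose groups lay apart by at least 0.5 or that had 1 of the 2 smallest p of their role. Further genes whose arrays are printed were named after their values were seen. Up to 3 genes with the smallest p are named per list. The equal replicate numbers of the groups were not taken as pairs. Deviations of same-numbered arrays correlated at 0.18, -0.32 and -0.19, and those of differently numbered arrays at -0.21 to 0.36. Deviations from a mean of 3 arrays depend on each other, so these values cannot decide whether the samples are paired. Alternatives were the scaling, background correction, filter, probe rule, slide, replicate number, variance model and each array left out. On simulated data of 18899 genes with 200 changed, the steps recovered 47.9% of log2 changes of 1 and 83.1% of log2 changes of 2, and 5.48% of calls were of unchanged genes. The simulated arrays had independent normal errors, no slide effect and no changes smaller than 1. These rates therefore need not hold for the present arrays or for smaller differences.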

Additional observations from a re-analysis of the deposited data

How the results depend on the processing

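Of 679 differences of single genes recomputed under 17 other settings, 637 kept their direction, and 0 passed an adjusted p of 0.05. The reversals fell on 19 of the 40 genes. With slide as a block, and likewise on slide 2 alone, differences of opposite sign were found for Agpat2 (0.0077), Elovl2 (0.43), Lpin1 (-0.0179), Lrp1 (0.0612), Mttp (0.33), Plin2 (0.84), Plin5 (0.78) and Pnpla3 (-0.0727). Elovl2 was also at 0.0438 with 75th percentile scaling and at 0.0015 with normexp correction, Pnpla3 at -0.0173 with normexp correction, and Apob at -0.0038 with the mean of probes. With each array left out in turn, differences that crossed 0 ran over -0.71 to 0.0054 for Cd36, -0.57 to 0.19 for Cidea, -0.24 to 0.15 for Elovl2, -0.15 to 0.45 for Fabp2, -0.26 to 0.73 for Mogat1, -0.32 to 0.0201 for Mttp, -0.77 to 0.0745 for Plin2, -0.31 to 0.12 for Plin3, -0.0833 to 0.90 for Plin4, -0.70 to 0.15 for Plin5, -0.0371 to 0.17 for Pnpla5, -0.39 to 0.0871 for Pparg, -0.59 to 0.32 for Scd2 and -0.0132 to 0.50 for Vldlr. The count of all genes that passed as higher, 3 with the plain comparison, was 1 with 75th percentile scaling, with normexp correction and with a strict filter, 5 with no filter, 9 with slide as a block and 0 on slide 2 alone. It was 0 with the replicate number as a block, and 1 to 38 with an array left out. The replicate block left the counts of the 40 genes and of the 6 lists as in the plain comparison, though the genes counted can differ. The count lower, 0 with the plain comparison, was 6 with slide as a block and 0 to 12 with an array left out. At an unadjusted p under 0.05 the count of the 40 genes that were lower, 1 with the plain comparison, was 0 with 75th percentile scaling, no filter or the mean of probes, 2 with slide as a block or on slide 2 alone, and 0 to 3 with an array left out. The count higher, 7 with the plain comparison, was 4 without MC-LR 2, 5 to 7 with any other array left out, and 6 to 8 under the remaining settings. For the 6 lists of other genes, the count higher was 11 with 75th percentile scaling, with the mean of probes and with trend and robust, 14 with slide as a block, 12 on slide 2 alone and 5 to 12 with an array left out, and the count lower was 4 with normexp correction, 1 on slide 2 alone and 1 to 6 with an array left out. The count of the 40 genes with groups apart and lower was 0 with 75th percentile scaling and with the mean of probes, 3 on slide 2 alone and 1 to 8 with an array left out, and the count apart and higher was 22 on slide 2 alone and 9 to 14 with an array left out, since fewer arrays overlap less. Slide as a block moved the share of higher among all genes at an unadjusted p under 0.05 to 49.3%, against 58.0% with the plain comparison. No paired analysis bears on the counts of groups that do not overlap.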
